A study of Mus musculus with 8 samples.

Results

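The genes described here are 10 nuclear factors that build the erythroid transcription programme: Gata1, Klf1, Tal1, Nfe2, Gfi1b, Zfpm1, Lmo2, Ldb1, Lyl1 and Cbfa2t3. They were found by their gene name among the non-control probes of the arrays, which gave 13 probes for the 10 genes, out of 39429 probes and 19130 genes tested. The cells were early erythroid progenitors of C57BL/6 mouse fetal liver at E14.5, left after magnetic removal of cells bearing lineage antigens, Sca-1, low-affinity Fc gamma receptors, CD41 or CD34, and sorted for c-kit and for the lowest 10% of CD71. After infection they were kept in culture for 3 days and their total RNA was hybridised to 8 one-colour arrays. The 4 groups, of 2 arrays each, were cells given shRNA1 with DEX, cells given shRNA2 with DEX, cells given a control virus with DEX, and cells given the control virus without DEX. DEX is the glucocorticoid of the series, and both short hairpin RNAs target an RNA-binding protein, which the labels do not name. That this protein is Zfp36l2 is known from the published study of this design. All 4 groups were infected and cultured, so none shows freshly isolated cells, and the labels do not say what drives the hairpins. No shRNA group was grown without DEX. The labels also do not say whether the 2 arrays of a group came from separate cultures, so the tests may weigh only technical differences from one array to the next.

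Red cell formation depends on a small group of DNA-binding factors that act in shared complexes. GATA1 binds GATA sites and works with its cofactor FOG1, the product of Zfpm1. KLF1 binds CACCC boxes of globin and many other red cell genes. TAL1 binds E-boxes as a partner of E proteins, and LMO2 and LDB1 bridge it to GATA1. LYL1 is the close relative of TAL1, and the product of Cbfa2t3, ETO2, joins the same complex as a corepressor. NFE2 is the haematopoietic subunit of a globin-regulating heterodimer with small MAF proteins, and GFI1B is a repressor that recruits histone-modifying enzymes. Glucocorticoids are known to keep early erythroid progenitors dividing and to delay their maturation.

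Because these factors are known to act on each other's genes, the letters they bind were looked up in the 250 bases before the gene starts, taken from RefSeq (build GRCm38.p6). The table matched 8 of the 10 genes, with 12 starts; Nfe2 and Lmo2 were not in it. The following 4 promoters are shown as examples. Those of Gata1 and Klf1 differ in the kinds of letters marked, whereas those of Tal1 and Gfi1b each hold a GATA site and a CACCC box. Capitals mark GATA sites, E-boxes and CACCC boxes on either strand. A GATA site was the word GATAA or the word GATAG after an A or T. The E-boxes searched were CAGCTG and, as a second form, CAGATG, read on both strands like the rest.
Gata1, chrX:7967911-7968160, minus strand: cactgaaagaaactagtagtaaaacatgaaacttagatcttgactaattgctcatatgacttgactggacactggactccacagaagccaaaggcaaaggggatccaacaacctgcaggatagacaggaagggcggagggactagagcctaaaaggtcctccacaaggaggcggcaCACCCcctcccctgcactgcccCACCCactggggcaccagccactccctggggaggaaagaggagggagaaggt
Klf1, chr8:84901732-84901981, plus strand: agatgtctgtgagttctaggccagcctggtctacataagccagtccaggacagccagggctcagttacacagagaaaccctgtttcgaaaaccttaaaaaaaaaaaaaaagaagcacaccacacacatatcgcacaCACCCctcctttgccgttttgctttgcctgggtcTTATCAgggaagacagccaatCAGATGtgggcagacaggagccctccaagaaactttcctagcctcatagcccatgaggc
Tal1, first of its starts, chr4:115056176-115056425, plus strand: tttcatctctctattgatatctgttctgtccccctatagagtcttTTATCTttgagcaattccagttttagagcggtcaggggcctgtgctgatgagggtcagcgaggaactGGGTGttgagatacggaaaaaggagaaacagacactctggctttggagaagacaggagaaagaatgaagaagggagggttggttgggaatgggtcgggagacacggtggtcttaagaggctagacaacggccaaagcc
Gfi1b, chr2:28621983-28622232, minus strand: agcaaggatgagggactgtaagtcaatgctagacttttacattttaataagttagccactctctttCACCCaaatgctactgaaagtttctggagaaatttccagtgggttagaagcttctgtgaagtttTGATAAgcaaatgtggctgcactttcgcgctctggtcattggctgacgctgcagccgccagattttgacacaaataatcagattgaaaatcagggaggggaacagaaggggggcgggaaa

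Tal1, Ldb1 and Cbfa2t3 have several windows, so counts are given over the 12 windows and set against 32851 promoters of the same length. The CACCC letters stood in 11 of the 12, against 52% of all promoters. The longer form CACACCC, which contains CACCC, was found in 3 of the 12 (Gata1, Klf1 and Lyl1), against 6.93% of all promoters. A GATA site was present in 5 of the 12 (1 each of Klf1, Tal1, Gfi1b, Ldb1 and Cbfa2t3), against 26.5%. An E-box was present in 2 of the 12 (Klf1 and Cbfa2t3), against 25.5%. CTG followed by the letters GATA after 7 to 9 bases is the composite that TAL1 and GATA1 complexes are known to bind, and it can overlap a GATA site. It stood in 4 of the 12 (Klf1, Tal1, Gfi1b and Cbfa2t3), against 6.13%. The letters AAATC, the core of the GFI1B site, were found in 3 of the 12 (Tal1, Gfi1b and Ldb1), against 32.7%. The NF-E2 core TGAGTCA was in none of these windows, against 4.46% of all promoters. These are matches of letters only.

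Levels are given as log2 signal minus the 75th percentile of the array, with the value of the first slide before that of the second. Replicate 1 of every group lay on slide 1 and replicate 2 on slide 2. Between 58.9% and 62.5% of probes were well above background on an array, and all 13 probes of the 10 genes were so on all 8 arrays, with none saturated. The number of arrays limits the precision. Each group also held the same position on both slides, so position and group cannot be told apart. Zfp36l2, the targeted gene, stood at 4.09 and 3.92 with shRNA1, at 4.12 and 3.70 with shRNA2, at 5.55 and 5.42 in control cells with DEX, and at 3.49 and 3.85 in control cells without DEX. It was thus lower with either shRNA than in control cells with DEX on both slides (log2 differences of -1.48 and -1.58), although neither difference passed the adjustment over all genes (limma, adjusted p = 0.923 and 1.00). All 11 measured erythroid markers were well above background on all arrays. Of the markers of other cells, 4 hepatocyte genes (Alb, Ttr, Fgb and Rbp4) and 5 lymphoid genes (Cd3g, Ebf1, Rag1, Il7r and Blk) were never above background. The hepatocyte genes Afp, Apoa2, Trf, Serpina1a and Hnf4a and the lymphoid genes Cd3e, Cd79a, Cd79b and Nkg7 were above it on all 8 arrays. An array had 5 to 8 of 12 hepatocyte and 4 to 6 of 12 lymphoid markers above it. For mast cell and basophil markers this was 7 to 11 of 12, and for monocyte and macrophage markers 7 to 8 of 11. All 12 neutrophil and all 12 megakaryocyte markers were above it on every array. The summed level of the neutrophil markers, relative to the 75th percentile on the linear scale, was 132 and 144 with shRNA1, 541 and 89.7 with shRNA2, 36.9 and 65.4 in control cells with DEX, and 40.5 and 180 in control cells without DEX. The megakaryocyte sum was 92.1 and 27.7 with shRNA1, 235 and 18.2 with shRNA2, 37.7 and 23.7 in control cells with DEX, and 58.1 and 79.9 in control cells without DEX. Replicate 1 of shRNA2 therefore stood apart in both sums, and the values of the factors and the lists that it moves are also given without it. Leaving out that array alone sets both slides of the other group against slide 2 of shRNA2, so gaps between the slides enter such a difference, whereas slide 2 taken alone compares arrays of 1 slide. The part of such cells in the results below was not tested, and in bulk RNA a smaller number of cells of a type cannot be told apart from less RNA per cell.

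None of the 10 genes passed the test in any of the 4 comparisons (limma on all 8 arrays, Benjamini-Hochberg adjusted p over 19130 genes, threshold 0.05). The share of all genes called was 0% in each comparison. With the slide as a replicate block, 44 genes (0.23%) were called for DEX, 0% for shRNA1, 1 entry known only by a transcript identifier (0.00523%) for shRNA2 and 0% between the shRNAs, and again none of the 10. Without adjustment, 0 of the 10 had a p under 0.05 in any comparison, against 3.11% of all genes for DEX, 2.09% for shRNA1, 1.25% for shRNA2 and 2.38% between the shRNAs. With the replicate block 2 of 10 had one for DEX (Tal1 and Nfe2, against 9.56% of all genes), 2 for shRNA1 (Zfpm1 and Nfe2, against 17.8%), 0 for shRNA2 (against 5.7%) and 2 between the shRNAs (Nfe2 and Zfpm1, against 11%). The differences below are thus measured values within the error of this design, and a difference that missed the threshold is not shown to be absent. The comparisons of DEX and of each shRNA share the arrays of control cells with DEX, so opposite signs in them are not independent. The plot of levels by array shows the 8 values of every gene.

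**Figure D1:**
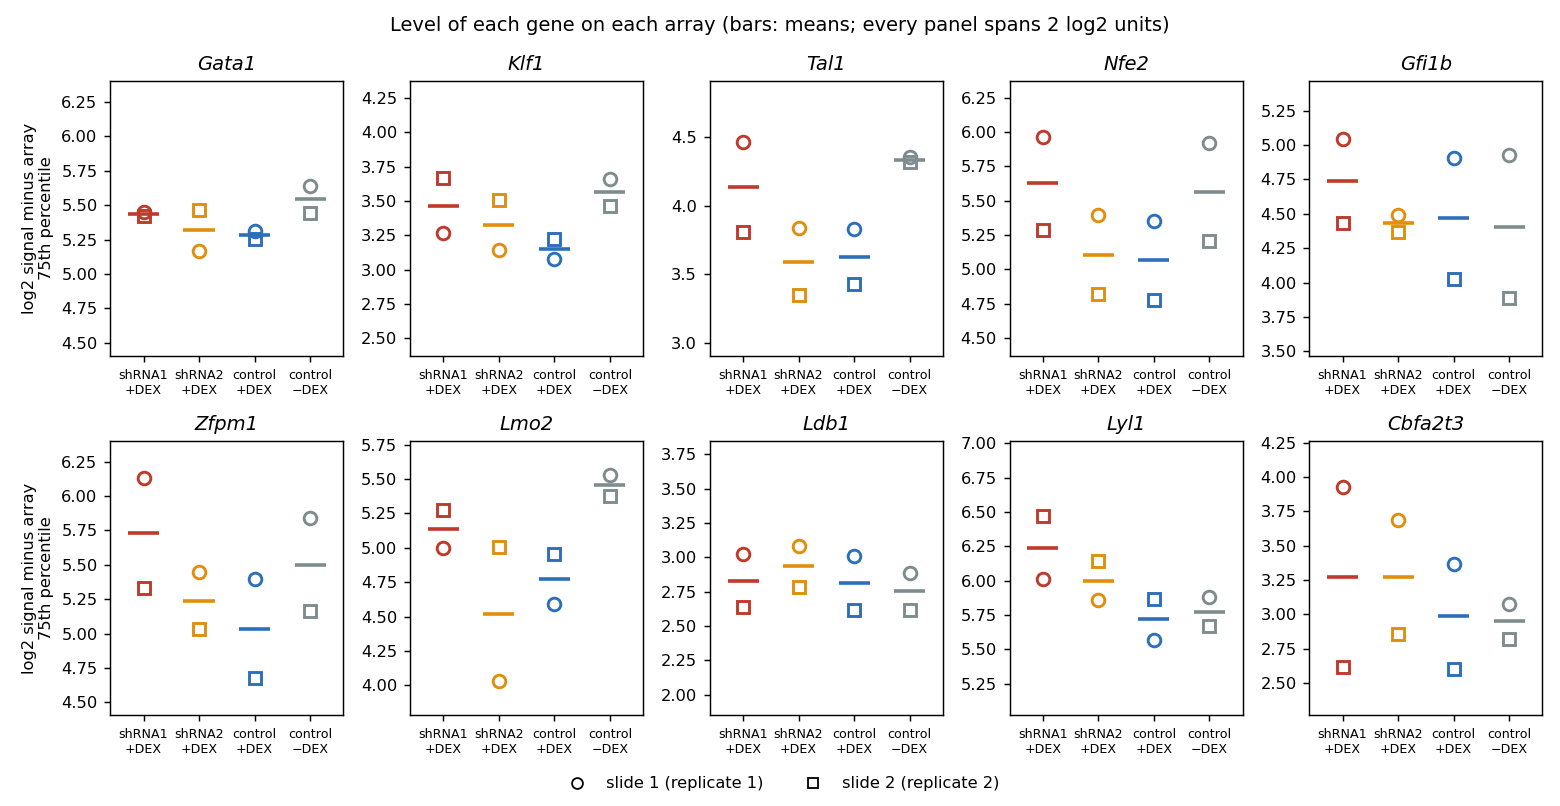
Level of each of the 10 genes on each array (log2 signal minus the array's 75th percentile), by group; circles are slide 1, squares slide 2 and bars the mean of the 2 arrays. The mean of control cells with DEX is the lowest of the group means for 5 genes (Gata1, Klf1, Nfe2, Zfpm1 and Lyl1). Among single arrays, replicate 1 of shRNA2 is the lowest for Lmo2 at 4.03.

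Gata1, a master regulator of the lineage, was measured by a probe at chromosome X, 7536392 to 7536451 (minus strand). All probe positions are in build mm9, and no annotation of that build was used here, so exons and other features are not stated. Its level was 5.45 and 5.42 with shRNA1, 5.17 and 5.46 with shRNA2, 5.31 and 5.25 in control cells with DEX, and 5.64 and 5.44 in control cells without DEX. Both DEX-treated control arrays lay below both untreated ones, and both shRNA1 arrays lay above the DEX-treated control arrays, whereas the shRNA2 arrays overlapped all other groups. The log2 difference was -0.26 (SE 0.28, 95% interval -0.94 to 0.42) with DEX against without it, 0.15 (SE 0.28) with shRNA1 and 0.03 (SE 0.28) with shRNA2 against control cells with DEX. Set against the median of all genes, which was 0.18 for shRNA1, the Gata1 value for shRNA1 was -0.03. Over the 4 groups the means of Gata1 spanned 0.26, and no neighbours in their order were free of overlap.

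Zfpm1 encodes FOG1, the cofactor through which GATA1 both activates and represses. The probe used stood at 6.13 and 5.33 with shRNA1, at 5.44 and 5.03 with shRNA2, at 5.39 and 4.67 in control cells with DEX, and at 5.84 and 5.16 in control cells without DEX. Slide 1 was higher than slide 2 in every group, so the groups overlapped, but within each slide shRNA1 was the highest group and control cells with DEX the lowest. Zfpm1 had the largest difference of the 10 genes with shRNA1, 0.70 (SE 0.46, 95% interval -0.42 to 1.82), with 0.74 on slide 1 and 0.66 on slide 2. With the replicate block its standard error was 0.20 and the adjusted p was 0.242, the smallest of the 10 genes in that comparison. The difference for DEX was -0.47 (-0.45 and -0.49 on the slides) and that for shRNA2 was 0.21 (0.05 and 0.36).

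Klf1, the activator of adult globin and red cell membrane genes, was read at chromosome 8, 87428881 to 87428940. Its level was 3.26 and 3.67 with shRNA1, 3.14 and 3.51 with shRNA2, 3.08 and 3.22 in control cells with DEX, and 3.66 and 3.46 in control cells without DEX. The DEX-treated control arrays lay below both untreated arrays and below both shRNA1 arrays. The log2 difference was -0.41 (SE 0.31, 95% interval -1.17 to 0.34) for DEX, 0.32 (SE 0.31) for shRNA1 and 0.18 (SE 0.31) for shRNA2.

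Nfe2, the globin-locus activator, was read at chromosome 15, 103078838 to 103078897, minus strand. It stood at 5.96 and 5.29 with shRNA1, at 5.39 and 4.82 with shRNA2, at 5.35 and 4.78 in control cells with DEX, and at 5.92 and 5.21 in control cells without DEX. Every group was higher on slide 1, by 0.57 to 0.71, so the groups overlapped while the order of groups was the same on both slides. The difference with shRNA1 was 0.56 (0.61 and 0.51 on the slides) and that with DEX was -0.50 (-0.56 and -0.43), and with shRNA2 both slides gave 0.04. With the replicate block the standard error was 0.18 in place of 0.44, and the adjusted p was 0.254 for shRNA1 and 0.444 for DEX.

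Gfi1b, the repressor that recruits LSD1 and CoREST, was read at chromosome 2, 28464982 to 28465041, minus strand. Its level was 5.05 and 4.43 with shRNA1, 4.49 and 4.37 with shRNA2, 4.91 and 4.03 in control cells with DEX, and 4.92 and 3.88 in control cells without DEX. The arrays of all groups overlapped. Its differences were 0.06 (SE 0.50, 95% interval -1.15 to 1.28) for DEX, 0.27 for shRNA1 and -0.04 for shRNA2, where the slides had opposite signs (-0.42 and 0.34).

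Tal1, the DNA-binding core of the complex that carries its name, was read at chromosome 4, 114744219 to 114744278. It stood at 4.46 and 3.81 with shRNA1, at 3.84 and 3.35 with shRNA2, at 3.83 and 3.43 in control cells with DEX, and at 4.35 and 4.31 in control cells without DEX. Both control arrays with DEX and both shRNA2 arrays lay below the untreated control arrays, and the shRNA1 arrays overlapped every other group. Tal1 had the lowest difference of the 10 genes with DEX, -0.71 (SE 0.37, 95% interval -1.60 to 0.19), a fold of 0.613, with -0.52 on slide 1 and -0.89 on slide 2. With the replicate block its interval was -1.26 to -0.15 and its adjusted p 0.349. Against control cells with DEX the difference was 0.51 (0.63 and 0.38) with shRNA1 and -0.04 (0.00 and -0.08) with shRNA2.

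Lyl1, the relative of TAL1, was read at chromosome 8, 87228531 to 87228590. Its level was 6.01 and 6.47 with shRNA1, 5.86 and 6.14 with shRNA2, 5.57 and 5.87 in control cells with DEX, and 5.88 and 5.67 in control cells without DEX. Both shRNA1 arrays lay above all 4 control arrays. The difference was 0.52 (SE 0.32, 95% interval -0.25 to 1.29) for shRNA1 and 0.28 for shRNA2 (0.29 and 0.27 on the slides), whereas for DEX it was -0.05 with opposite signs on the slides (-0.31 and 0.20).

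Lmo2, the LIM-only bridge between TAL1 and GATA1, was read at chromosome 2, 103821857 to 103821916. With all arrays it had the widest spread between groups, 0.94 between the highest and the lowest mean. It stood at 5.0 and 5.28 with shRNA1, at 4.03 and 5.0 with shRNA2, at 4.59 and 4.95 in control cells with DEX, and at 5.53 and 5.38 in control cells without DEX. The untreated control arrays were above all others, and the shRNA1 arrays were above the DEX-treated control arrays. Lmo2 was the only gene of the 10 in which neighbours in the order of groups did not overlap, and this held for untreated control cells over shRNA1 and for shRNA1 over control cells with DEX. The difference was -0.68 (SE 0.40, 95% interval -1.66 to 0.30; fold 0.623) for DEX and 0.36 (SE 0.40) for shRNA1. For shRNA2 it was -0.25 with replicate 1 of that group, 0.23 without it and 0.05 on slide 2 alone, so that 1 array decides the sign. The same array sets the lowest mean, since replicate 2 of shRNA2 lay above the mean of control cells with DEX (4.77). Without replicate 1 the span would be the size of the DEX difference (-0.68), while Tal1 spanned 0.74 with all arrays.

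Ldb1, the dimerising scaffold of the complex, differed least (chromosome 19, 46107487 to 46107546, minus strand). Its level was 3.02 and 2.64 with shRNA1, 3.09 and 2.78 with shRNA2, 3.01 and 2.61 in control cells with DEX, and 2.88 and 2.62 in control cells without DEX. The means of the 4 groups spanned 0.18, less than the gap between the slides within any group (0.26 to 0.40). Its differences were 0.06 for DEX (SE 0.32, 95% interval -0.73 to 0.85), 0.02 for shRNA1 and 0.12 for shRNA2.

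Cbfa2t3 encodes ETO2, the corepressor that holds the complex back until maturation. The probe used stood at 3.92 and 2.62 with shRNA1, at 3.69 and 2.85 with shRNA2, at 3.37 and 2.60 in control cells with DEX, and at 3.07 and 2.82 in control cells without DEX. All arrays of slide 1 were above all arrays of slide 2. The differences were 0.04 for DEX (SE 0.56, 95% interval -1.32 to 1.40), 0.28 for shRNA1 and 0.29 for shRNA2.

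With DEX against without it in control cells, 6 of the 10 genes were lower on both slides (38.7% of all genes tested were) and none was higher on both (23.4%). Tal1, Lmo2, Klf1 and Gata1 were lower with no overlap between the arrays, 4 of 10 against 16.5% of all genes, and none was higher in that way, against 10.4%. The median of the 10 differences was -0.34, or -0.26 below the median of all genes, and on the slides taken alone this relative median was -0.28 and -0.20. Gfi1b, Ldb1, Lyl1 and Cbfa2t3 lay between -0.05 and 0.06. All adjusted p were 1.00, and with the replicate block they lay between 0.349 and 0.999.

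With shRNA1 against the control virus under DEX, all 10 genes were higher on both slides, against 49.3% of all genes tested. Gata1, Klf1, Lmo2 and Lyl1 were higher with no overlap between arrays, 4 of 10 against 18% of all genes, and none was lower in that way, against 7.56%. Because the median of all genes was itself 0.18 here, 8 of the 10 lay above that median (all but Gata1 and Ldb1), and the relative median of the 10 was 0.16. That shift depends on the scaling, since the median of all genes was -0.22 when each array was scaled to its median and -0.00 with quantile normalization. The counts of genes higher on both slides or without overlap depend on the scaling too. Ldb1 (0.01 and 0.03 on the slides) and Cbfa2t3 on slide 2 (0.01) were barely above 0. On slide 1 alone 6 of the 10 lay above the median of all genes, and on slide 2 alone 8 did. Adjusted p lay between 0.923 and 0.987, and between 0.242 and 0.955 with the replicate block.

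With shRNA2 against the control virus under DEX, 6 of the 10 genes were higher on both slides (27% of all genes) and none was lower on both (25.4%). No gene of the 10 was free of overlap in either direction, against 7.26% of all genes higher and 8.19% lower. The differences ran from -0.25 for Lmo2 to 0.29 for Cbfa2t3, with a relative median of 0.07. The median of all genes was 0.01 here and -0.23 when each array was scaled to its median. Counts of genes above 0, higher on both slides or free of overlap therefore depend on the scaling. Without replicate 1 of shRNA2, 4 of the 10 differences were above 0 in place of 7, the relative median was 0.05, and the adjusted p were 0.999 or more. On slide 2 alone, which leaves that array out, 9 of the 10 lay above the median of all genes, with a relative median of 0.24.

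Between the hairpins, shRNA1 was higher than shRNA2 on both slides in 7 of the 10 genes (45.8% of all genes) and lower on both in Ldb1 (22.2%). None was free of overlap in either direction, against 12.3% of all genes higher and 4.57% lower. These counts depend on the scaling, as the median of all genes was 0.13 here and -0.02 with each array scaled to its median. The differences were 0.62 for Lmo2 (SE 0.40), 0.55 for Tal1 (SE 0.37), 0.52 for Nfe2 (SE 0.44) and 0.49 for Zfpm1 (SE 0.46), and those of the other genes lay between -0.10 and 0.31. None passed the test of this difference (adjusted p 1.00, and 0.408 or more with the replicate block), so the hairpins are not shown to differ in any of the 10. Without replicate 1 of shRNA2, the Lmo2 difference was 0.13, while those of Tal1, Nfe2 and Zfpm1 were 0.79, 0.80 and 0.70 (adjusted p 0.660 for each of the 3). Part, not all, of the slide gap of shRNA1 (0.65, 0.67 and 0.80 for Tal1, Nfe2 and Zfpm1) enters these values, because its mean covers both slides. On slide 2 alone the differences were 0.46 for Tal1, 0.47 for Nfe2, 0.30 for Zfpm1 and 0.27 for Lmo2. The plot of differences sets the 4 comparisons side by side.

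**Figure D2:**
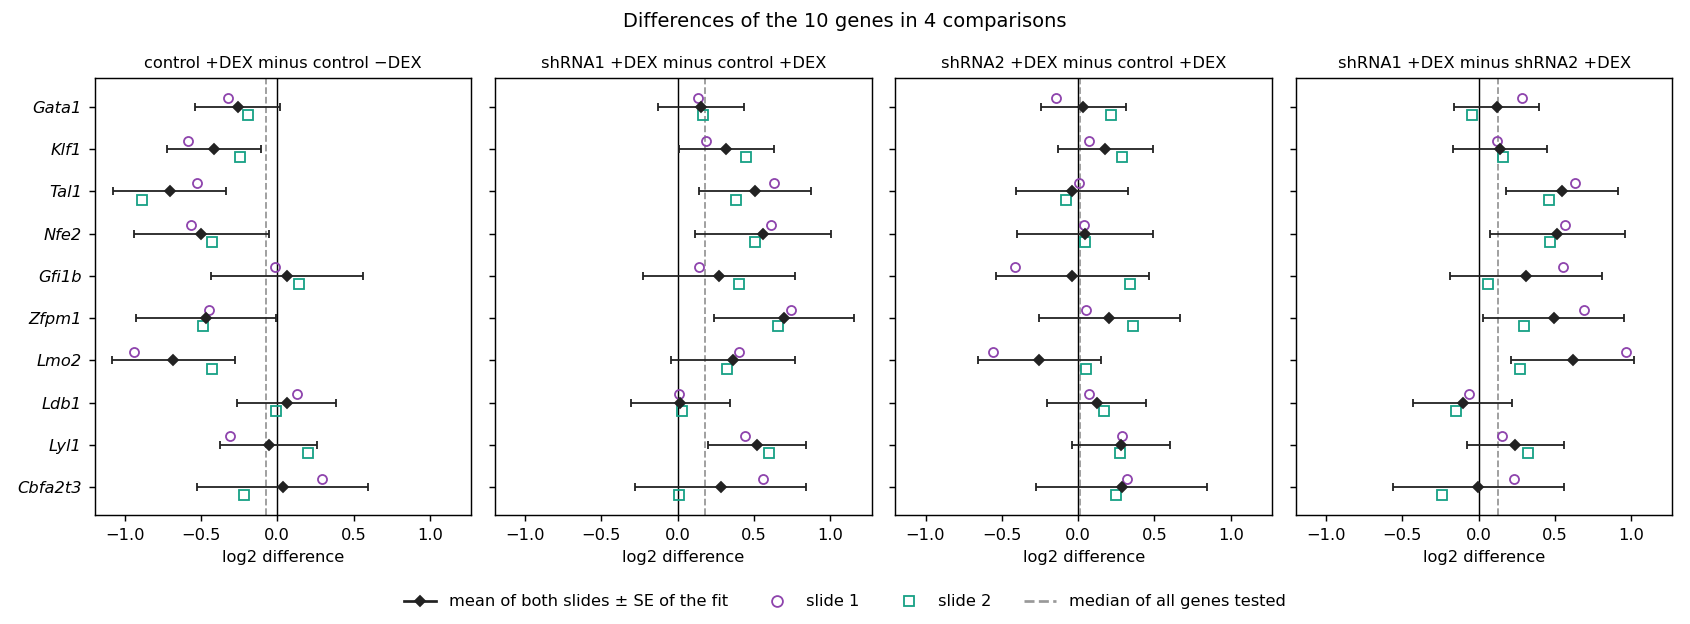
Log2 difference of each gene in the 4 comparisons (diamonds, mean of both slides, with bars of 1 SE of the fit; circles slide 1, squares slide 2; dashed line, median of all genes tested). Tal1 and Lmo2 reach -0.71 and -0.68 with DEX, Zfpm1 reaches 0.70 with shRNA1, and all 10 genes lie above 0 with shRNA1 in this scaling.

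The order of groups differed between genes. Untreated control cells had the highest mean for Gata1, Klf1, Tal1 and Lmo2, shRNA1 for Nfe2, Gfi1b, Zfpm1 and Lyl1, and shRNA2 for Ldb1 and Cbfa2t3. Control cells with DEX had the lowest mean for 5 genes, untreated control cells for 3 (Gfi1b, Ldb1 and Cbfa2t3) and shRNA2 for 2 (Tal1 and Lmo2).

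The arrays also differed by slide. Mean gaps between slide 1 and slide 2 were 0.79 for Cbfa2t3, 0.66 for Gfi1b, 0.65 for Zfpm1, 0.63 for Nfe2, 0.40 for Tal1 and 0.34 for Ldb1, each positive in all 4 groups, against a median over all genes of 0.18. For Cbfa2t3, Gfi1b, Nfe2 and Ldb1 this gap was wider than the span of the group means (0.32, 0.34, 0.56 and 0.18). For Lmo2, Lyl1 and Klf1 the mean gap was -0.37, -0.20 and -0.18, negative in the 3 groups with DEX and positive in untreated control cells. Gata1 had a mean gap of -0.00, from -0.30 in shRNA2 to 0.19 in untreated control cells. Whether the slide stands for a separate culture, labelling or hybridisation is not given in the labels.

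**Figure D3:**
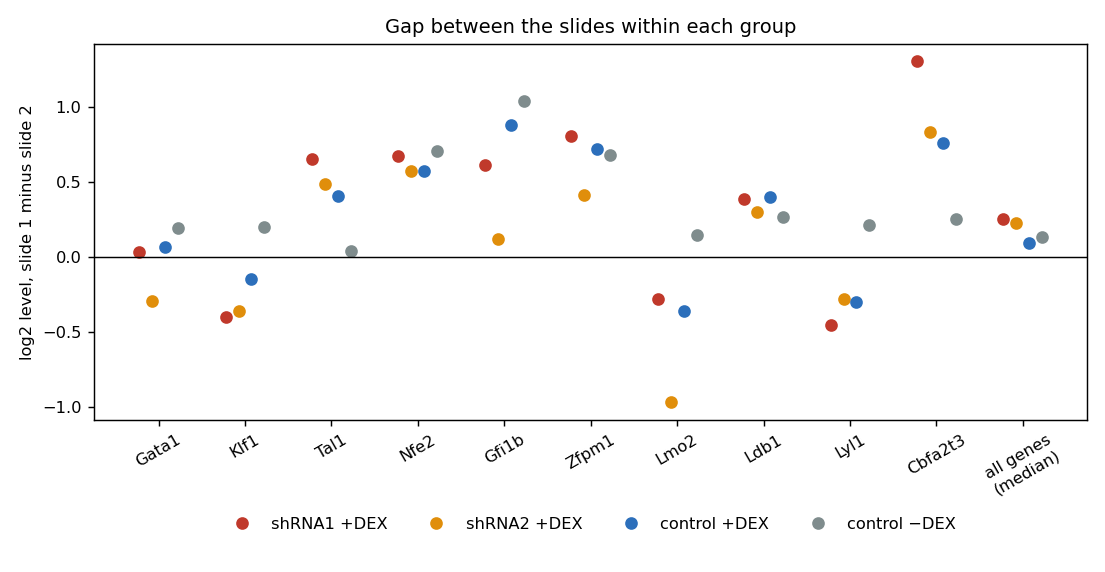
Slide 1 minus slide 2 of the log2 level of each gene in each group, with the median of all genes at the right. Cbfa2t3, Gfi1b, Zfpm1, Nfe2, Tal1 and Ldb1 lie above 0 in all 4 groups, and Lmo2 reaches -0.97 in shRNA2.

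Cbfa2t3 and Zfpm1 had more than 1 probe. The 2 Zfpm1 probes start at bases 3325 and 3330 of the transcript (chromosome 8, 124861087 to 124861146 and 124861092 to 124861151) and share 55 of their 60 bases, so they are not separate measurements. Their first 30 bases are shown to make the overlap visible, with the shared part in capitals.
Zfpm1 probe at base 3325: agtgaGCCTGTGGGGCCGCACCACCAGGAC
Zfpm1 probe at base 3330: GCCTGTGGGGCCGCACCACCAGGACccttg
The 3 Cbfa2t3 probes lie far apart on the genome, and their first 30 bases are shown because they read separate stretches of the gene. The files place the probe at base 2616 on one transcript of the gene and the probes at bases 992 and 4484 on another, so these bases are counted on different transcripts.
Cbfa2t3 probe at base 992 (chr8:125162758-125162817, minus strand): tcgactcgtctgagctcctgctggaagtca
Cbfa2t3 probe at base 2616 (chr8:125154010-125154069, minus strand): ctcatgagtaagggaagaaactgtgatttt
Cbfa2t3 probe at base 4484 (chr8:125152161-125152220, minus strand): tacttcttgtctctgctactccactgcatg

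The Zfpm1 probes gave 0.70 and 0.72 with shRNA1, -0.47 and -0.40 with DEX, and 0.21 and 0.08 with shRNA2. On slide 1 that shRNA2 difference was 0.05 for the probe used and -0.13 for the other. The lowest group on slide 1 was thus control cells with DEX for the probe used and shRNA2 for the other. The Cbfa2t3 probes did not give the same picture. With shRNA2 they read 0.85, 0.29 and -0.30 in the order of transcription, and with shRNA1 0.83, 0.28 and 0.46. Between the hairpins the first and the middle probe read -0.02 and -0.00, and the last 0.76. The probe at base 992 stood at -0.55 and -3.33 with shRNA1, -0.59 and -3.25 with shRNA2, -1.84 and -3.71 in control cells with DEX, and -2.14 and -3.43 in control cells without DEX, and so was far lower on slide 2 in every group. Its standard error in these comparisons was 1.29. No Cbfa2t3 probe passed the test over 23846 probes (adjusted p 0.926 or more). Over the array as a whole, 1536 pairs of probes lay at least 1000 bases apart on 1 transcript, and in 61.3% of them the upstream probe had the larger gap between slides. Over all 1536 pairs the gap of the upstream probe minus that of the downstream probe had a median of 0.19.

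**Figure D4:**
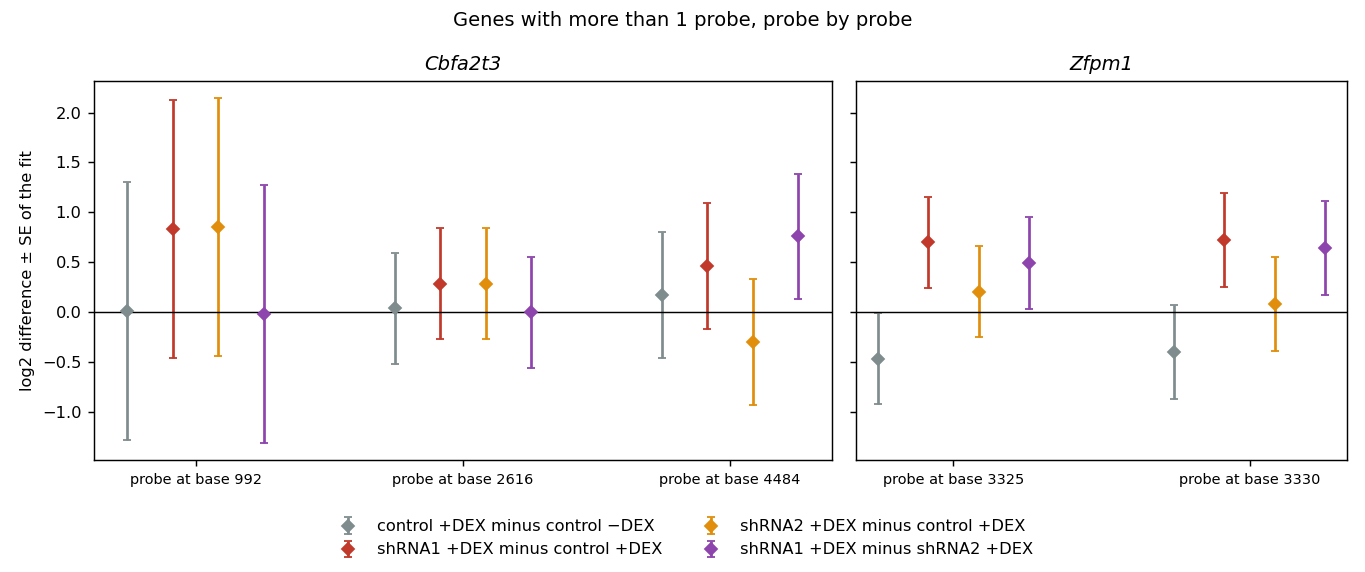
Log2 differences (± 1 SE of the fit) of each probe of Cbfa2t3 and Zfpm1 in the 4 comparisons, in the order of transcription; the bases of Cbfa2t3 are counted on 2 transcripts. The overlapping Zfpm1 probes have the same sign in each comparison, and the Cbfa2t3 probes give 0.85, 0.29 and -0.30 for shRNA2.

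Genes that these factors are known to activate were measured as a list of 35 of 36 (globins, haem enzymes, membrane proteins and others, Tal1 itself included). None was called in any comparison, in either fit. With DEX, 30 of the 35 lay below the median of all genes and 21 were lower with no overlap (16.5% of all genes), with a median of -0.66 relative to all genes. The lowest were Dmtn at -2.35 (adjusted p 0.202, and 0.0597 with the replicate block) and Slc4a1 at -2.04, which encode the membrane skeleton protein dematin and the anion exchanger band 3, and the highest were Sptb at 1.09 and Rhag at 0.43. With shRNA1, 31 of the 35 lay above the median of all genes and 20 were higher with no overlap (18% of all genes), with a relative median of 0.66. Slc4a1 at 1.87 and Trim10 at 1.65 were highest, and Rhag at -0.22 and Icam4 at -0.19 lowest. With shRNA2 the list split into 18 above and 17 below, with a relative median of 0.00, from 0.55 for Dmtn and 0.48 for Hbb-bt to -0.95 for Sptb and -0.61 for Rhd. Without replicate 1 of shRNA2 the split was 11 above and 24 below with a median of -0.25, and on slide 2 alone it was 19 and 16 with a median of 0.06. Between the hairpins all 35 lay above the median of all genes, by a median of 0.69, and without replicate 1 of shRNA2 30 of 35 did, by 0.95, and on slide 2 alone 34 did, by 0.64. The erythroid marker sum, which shares genes with this list, was 1721 and 659 with shRNA1, 1189 and 420 with shRNA2, 831 and 417 in control cells with DEX, and 1141 and 623 in control cells without DEX.

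A list of 20 genes that the factors are known to repress, mostly of earlier progenitors, had 17 tested (Gata2, Erg and Bcl11b had no probe well above background on both arrays of a group). None was called. Kit, the stem cell factor receptor, was 1.72 higher with DEX (adjusted p 0.416, and 0.0802 with the replicate block) and its difference was -1.20 with shRNA1 against control cells with DEX. Spi1, the myeloid factor PU.1 that opposes GATA1, was 1.20 higher with DEX, and Meis1 and Cebpa were lowest at -1.43 and -1.26. Relative to all genes the median of the 17 was 0.31 with DEX (10 above; 0.48 and 0.00 on the slides), -0.45 with shRNA1 (14 below) and 0.07 with shRNA2 (11 above). With shRNA1 the highest were Runx1 at 0.43 and Flt3 at 0.39, and the lowest after Kit was Hhex at -0.73. With shRNA2 the highest were Flt3 at 1.89 and Cd34 at 1.15, the lowest Socs2 at -0.53 and Lyn at -0.48, and without replicate 1 of that group 11 of the 17 lay below the median of all genes (9 on slide 2 alone). Flt3 and Cd34 were higher by 3.55 and 2.45 on slide 1, where that array lies, and differed by 0.23 and -0.14 on slide 2. Between the hairpins the median was -0.75 (14 below), or -0.39 without that array and -0.32 on slide 2 alone, from 0.38 for Socs2 and 0.20 for Hoxa9 to -1.50 for Flt3 and -1.43 for Cd34, which on slide 2 alone stood at -0.19 and -0.36.

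**Figure D5:**
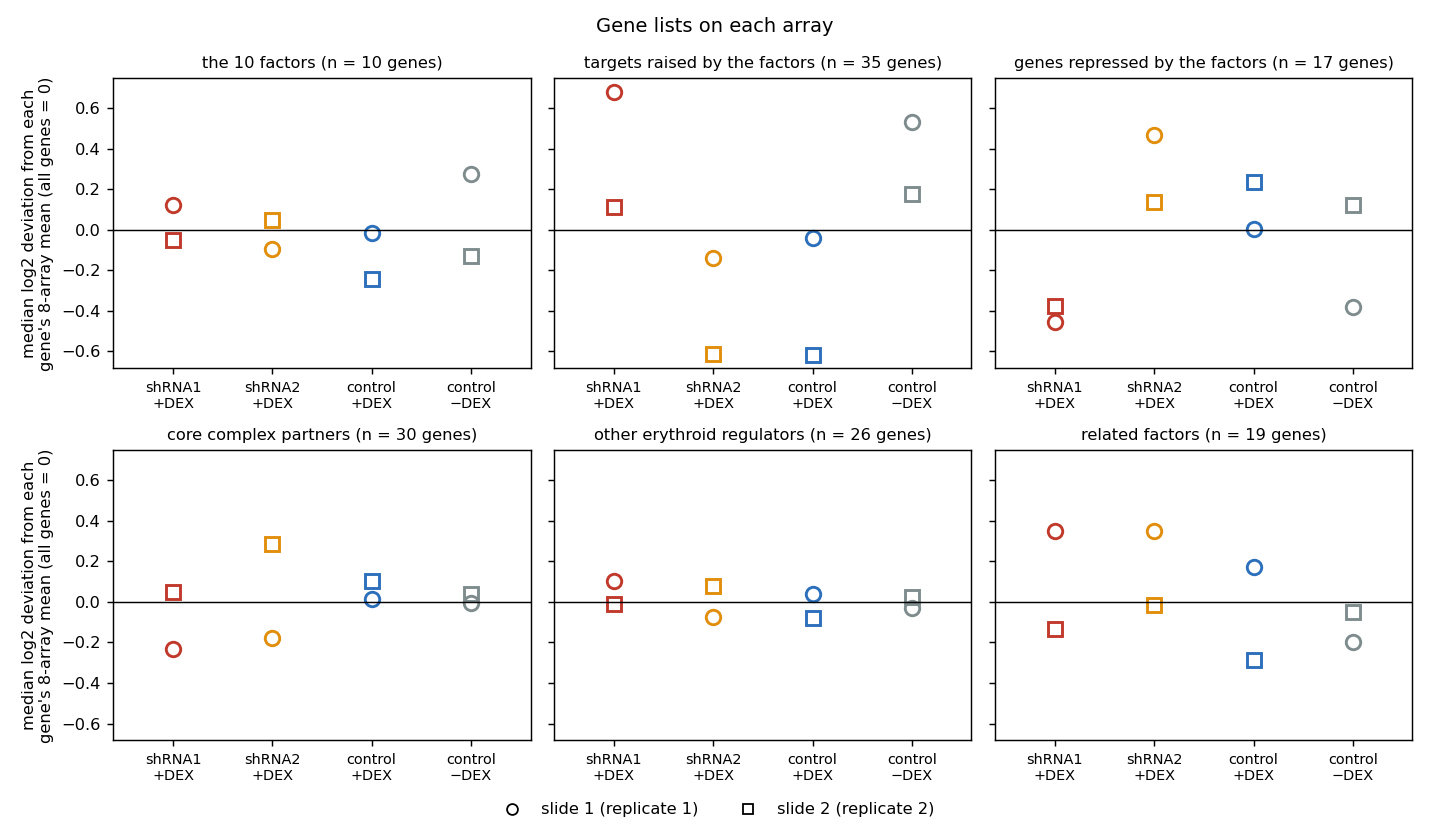
Median deviation of each gene list from its genes' own 8-array means (log2, all genes set to 0) on each array; circles are slide 1 and squares slide 2. The list of activated targets lies highest in shRNA1 and in control cells without DEX on each slide, and the 10 factors themselves stay between -0.24 and 0.27.

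The 30 partner proteins of the complexes (E proteins, LDB1-binding SSBP proteins, NuRD and CoREST subunits, small MAFs and coactivators) gave no call, and their medians relative to all genes were 0.01 with DEX, -0.12 with shRNA1, -0.00 with shRNA2 and 0.00 between the hairpins. Without replicate 1 of shRNA2 the last 2 medians were 0.17 and -0.33, and on slide 2 alone 0.11 and -0.11. Maff, a small MAF that can pair with NFE2, was 2.65 higher with DEX (3.03 and 2.27 on the slides; adjusted p 0.903, and 0.216 with the replicate block), and Gatad2a followed at 0.39. Mafg, another small MAF, was lowest with DEX at -0.62 beside Ssbp2 at -0.61, and with shRNA1 it stood at 0.84, second to Crebbp at 1.06. Tcf12, an E protein partner of TAL1, and Rbbp7 were lowest with shRNA1 at -0.67 and -0.63. With shRNA2 the ends were Lmo4 at 0.72 and Crebbp at 0.59 against Gatad2a at -0.67 and Rbbp7 at -0.48, and between the hairpins Gatad2a at 0.71 against Lmo4 at -0.96 and Brd3 at -0.37.

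Among 26 other erythroid regulators none was called, and the relative medians were -0.13 with DEX, 0.01 with shRNA1, -0.05 with shRNA2 and -0.07 between the hairpins. Without replicate 1 of shRNA2 the last 2 were -0.07 and -0.14, and on slide 2 alone -0.02 and -0.12. Sox6, a repressor of embryonic globin, was lowest with DEX at -1.44 and highest with shRNA1 at 1.15. Klf3, a repressor that KLF1 is known to activate, was -0.96 with DEX, and Stat5a and Myb were highest at 0.60 and 0.59. With shRNA1 the lowest were Ikzf1 at -0.72 and Myb at -0.54, and Gfi1, the paralogue of Gfi1b, was at 1.09. With shRNA2 Gfi1 was highest at 1.44 (2.65 on slide 1 and 0.24 on slide 2), followed by Nfe2l1 at 0.69, and Ikzf1 and Trim58 were lowest at -0.71 and -0.47. Between the hairpins Sox6 and Foxo3 were highest at 1.61 and 0.97, and Myb and Klf10 lowest at -0.43 and -0.35.

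Relatives of the 10 factors (19 of 30 tested, since Gata2, Gata3, Gata4, Gata6, Tal2, Lmo3, Ldb2, Zfpm2, Nfe2l3, Klf12 and Nhlh2 had no probe well above background on both arrays of a group) gave no call either, with relative medians of -0.04 with DEX, 0.14 with shRNA1, 0.19 with shRNA2 and -0.15 between the hairpins. Without replicate 1 of shRNA2 the last 2 were 0.09 and -0.18, and on slide 2 alone 0.24 and -0.12. Klf5 was 2.29 higher with DEX (2.39 and 2.19 on the slides; adjusted p 0.441, and 0.108 with the replicate block) and Klf13 1.07 higher, while Lmo1 was lowest at -1.77 beside Klf3, with 1 of its 2 arrays above background in each of those groups. Klf2 and Gfi1 were highest with shRNA1 at 1.15 and 1.09, and Klf8 and Klf9 lowest at -1.38 and -0.49. Lmo1 and Gfi1 were highest with shRNA2 at 3.04 and 1.44, where slide 1, with the shRNA2 array that stood apart, gave 5.26 for Lmo1 and slide 2 gave 0.81. Lmo1 was above background on 1 of the 2 arrays of control cells with DEX, and Runx1t1 and Klf8 were lowest at -0.93 and -0.35. Runx1t1 at 1.55 and Klf2 at 0.68 led between the hairpins, with Klf8 at -1.02 at the other end. Runx1t1 was above background on 1 of 2 shRNA2 arrays and Klf8 on 1 of 2 shRNA1 arrays. Lmo1 was not well above background on either shRNA1 array, and its measured difference from shRNA2 was -3.45 on slide 1 and -0.94 on slide 2, so its size rests on the shRNA2 array that stood apart and no fold is given.

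The genes whose levels followed Gata1, Klf1 and Nfe2 most closely over the 8 arrays were taken from 13264 named genes outside the 10. These correlations describe 8 arrays that share groups and slides. For Gata1 they were Glrx5, a mitochondrial glutaredoxin of iron-sulphur cluster assembly (r = 0.956), Taf15 (0.953), the thyroid hormone receptor Thra (0.953) and Atf4 (0.934). For Klf1 they were Zfp414 (0.971), Cd248 (0.958), Ppp2r2d (0.952) and U2af1l4 (0.946). For Nfe2, whose levels are dominated by the gap between the slides, they were Zrsr1 (0.995), Lrrc8b (0.994), Fzr1 (0.991) and Myl3 (0.989).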

How the data were processed

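The 8 samples were each read on an Agilent array after Cy3 labelling of total RNA. Per the file headers, the deposited intensity values were made with Feature Extraction 10.1.1.1, with spatial and multiplicative detrending on and further background correction off, on a design annotated on mm9. The deposited table of log2 values from the authors, whose normalization is not given in the sources used here, served as an alternative.

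Processed intensities of 44397 spots per array, after removal of 1377 control spots and of outlier spots, were divided by the 75th percentile of the array and taken to log2. Spots of a probe were averaged. The 441 probes without a usable spot on some array were left out, and a probe entered the tests when both arrays of some group showed it well above background (23846 of 39429 probes). Names came from RefSeq through the accession for 26581 probes, and 12848 kept the name in the file. For each of 19130 genes the probe with the highest mean was used, a choice that touched 3900 genes. All 4 groups entered 1 fit with limma 3.58.1 in R 4.3.3 (package data.table, version 1.17.8; figures with matplotlib 3.10.9), without a block, and p-values were adjusted by Benjamini-Hochberg over all genes. The script was tested on simulated data. Where spread around a difference is given, it is the standard error or 95% interval. Single genes of the lists are given without it, and their standard errors ranged widely. With shRNA1 it was 1.12 for Crebbp at 1.06 and 1.30 for Klf2 at 1.15, whereas with DEX it was 0.31 for Kit at 1.72. The order of genes at the ends of a list is therefore uncertain.

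The replicate number is the slide: the gaps between slides of the 4 groups correlated at 0.43 to 0.86 over genes, so a fit with the slide as a replicate block was set beside the first one. The factors, the gene lists and the marker lists were written from general knowledge with earlier results of these data known. Besides the 10 factors, all named with all their probes, the text names the targeted gene and the 4 genes most correlated with Gata1, Klf1 and Nfe2. From each list it names genes among the 2 highest and 2 lowest in a comparison, though not all of them. No activated target is named between the hairpins. Among the list and marker genes, 2 are not reported here.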

Additional observations from a re-analysis of the deposited data

How the results depend on the processing

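None of the 10 genes was called in any comparison under any alternative (253 values per comparison: scaling to the median, quantile normalization, normexp background, other filters on dim probes, the mean of probes, the authors' values, only the compared groups, the replicate block, and each array left out with and without that block). The smallest adjusted p of these values was 0.343 for DEX, 0.207 for shRNA1, 0.344 for shRNA2 and 0.281 between the hairpins. With the replicate block, calls over all genes were 44 for DEX, 0 for shRNA1, 1 for shRNA2 and 0 between the hairpins, against 0 without it in each, and no call on the 10 genes changed. The sign of a difference relative to all genes changed in 12 of 253 values for DEX, in 23 for shRNA1, in 26 for shRNA2 and in 22 between the hairpins. Gata1, Klf1, Tal1, Nfe2, Zfpm1 and Lmo2 kept theirs throughout for DEX, Tal1, Nfe2 and Zfpm1 for shRNA1, Lyl1 for shRNA2, and Tal1, Nfe2, Zfpm1 and Ldb1 between the hairpins. Of the 10 genes' relative medians, 1 moved by more than the spread between arrays: between the hairpins it was 0.15 with all arrays, and it lay between -0.060 and 0.29 when each array was left out, with -0.060 under the replicate block without shRNA2 replicate 1. A group left with 1 array was assumed to vary like the others. Of the 20 list medians, 7 stayed within that spread under all settings and 13 did not under at least 1. Among them, the median of the repressed genes with DEX lay between -0.04 and 0.60 (0.31 with all arrays), and that of the complex partners between the hairpins between -0.33 and 0.15 (0.00 with all arrays). Using each Cbfa2t3 or Zfpm1 probe alone was an alternative chosen after seeing the data. With 2 arrays per group the narrowest interval of the 10 genes in the fit without a block, that of Gata1, ran from -0.94 to 0.42 for DEX. With the replicate block that interval was -0.77 to 0.25, and the narrowest, that of Ldb1, was -0.38 to 0.50.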
